A study of Mus musculus with 6 samples.

Results

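The genes described are cyclins, cyclin-dependent kinases (Cdks), E2f transcription factors, DNA replication factors and mitotic kinases, compared between 2 lines derived from S49, a mouse T lymphoma known for growing in suspension. Members were all genes with a probe whose name on the array matched a fixed pattern of name beginnings (Mcm, Orc, Rfc, Pola, Pold, Pole, Prim, Ccna, Ccnb, Ccnd, Ccne, Cdk, Cdc, E2f, Gins, Rrm, Aurk, Bub, Plk), and the brightest probe stood for each gene. Names on the array are older than the current symbols used here (Cdk1 stood there as Cdc2a, Orc2 as Orc2l). The pattern found 97 of the 27670 genes named on the array, covered by 171 of 41174 probes. Of these, 88 have a role in the cell cycle or belong by name to the families listed, and 9 matched only by the start of their name (Aurkaip1, Ccnb2-ps, Cdc73, Cdk5rap1, Cdk5rap2, Cdk5rap3, Mcm3ap, Poldip2 and Poldip3). MR 4-25 is a line recovered from mannitol, a sugar alcohol that raises the osmolarity of culture medium, and Neo is its parental line. Each line gave 3 untreated samples grown in RPMI-1640 with 10% heat-inactivated serum, each hybridised to 1 whole-genome Agilent array with a single dye, Cy3. Each group is 1 line, so recovery from mannitol and whatever else distinguishes the lines cannot be told apart. Whether the samples came from separate cultures is not in the labels; the p-values therefore reflect sample-to-sample spread, which may be technical.

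A dividing cell assembles the origin recognition complex, Cdc6 and the Mcm helicase on its origins before S phase, and Cdks bound to cyclins then start replication and later mitosis. The retinoblastoma protein holds E2f factors back until D-type cyclins with Cdk4 or Cdk6, and then cyclin E with Cdk2, phosphorylate it. E2f factors then switch on many of the replication genes, whereas genes of mitosis are controlled largely through other promoter elements. The product p16Ink4a of Cdkn2a inhibits Cdk4 and Cdk6, and the other product of that gene, p19Arf, inhibits Mdm2, the ubiquitin ligase that removes p53. Loss of Cdkn2a is common in T cell leukaemias.

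Sequences of promoter sites are shown because the replication genes below fall into those with and without E2F letters in their promoters. RefSeq promoter windows (GRCm38.p6, 250 bases before to 50 after the start, 300 in all) were matched for 74 of the 97 members. The letters searched on both strands were TTTCCCGC, TTTCGCGC, TTTGCCGC and TTTGGCGC. Neighbouring matches on opposite strands can overlap, and a match describes letters, not binding. Each site below is read 5′ to 3′ on the gene's own strand with the matched letters in capitals, in reverse complement where the match lies on the opposite strand. Of the sites shown, 8 belong to members whose signal averaged lower in MR 4-25 and 2, of Pold1 and E2f2, to the only measured member genes with the letters that averaged higher. These directions are those of the brightest probe, and another probe of Pold1 gave -0.21.
Mcm3 (chr1:20820275-20820304, minus strand): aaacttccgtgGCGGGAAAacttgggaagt
Cdc25a (chr9:109875501-109875530, plus strand): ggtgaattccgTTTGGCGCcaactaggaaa
Pole2 (chr12:69228162-69228191, minus strand): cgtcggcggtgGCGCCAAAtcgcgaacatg
Pola1 (chrX:93632275-93632304, minus strand): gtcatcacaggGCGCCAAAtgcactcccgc
Orc1 (chr4:108579416-108579445, plus strand): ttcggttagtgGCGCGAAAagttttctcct
Cdc6 (chr11:98908002-98908031, plus strand): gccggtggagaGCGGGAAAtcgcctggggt
Mcm5 (chr8:75109345-75109374, plus strand): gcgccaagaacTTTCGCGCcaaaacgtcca
Mcm6 (chr1:128359797-128359826, minus strand): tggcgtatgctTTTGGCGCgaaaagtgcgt
Pold1 (chr7:44548766-44548795, minus strand): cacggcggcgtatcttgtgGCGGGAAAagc
E2f2 (chr4:136172294-136172323, plus strand): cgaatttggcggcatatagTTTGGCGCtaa

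Signals are given as log2 of the processed intensity minus log2 of the same array's 75th percentile, so 0 is a signal at that percentile, and differences are MR 4-25 minus Neo. Values run in replicate order. Replicates 1 and 2 of each line were on slide 1 and replicate 3 of each on slide 2. The 75th percentile was 521 intensity units on the array of MR 4-25 replicate 3 and 844 to 988 on the other 5 arrays, and that array had 61.3% of probes well above background against 69.9% to 76.3% elsewhere. Member probes lost little on it, with 149 of 171 well above background against 154 to 157 on the other arrays. All 6 T cell markers (Cd3d, Cd3e, Cd3g, Thy1, Lck and Ptprc) were well above background on every array. The summed level of 5 myeloid markers lay between 0.43 and 0.65 on MR 4-25 arrays and between -0.17 and -0.05 on Neo arrays, on the same log2 scale; that of 3 measured fibroblast markers of 4 listed lay between -0.77 and 0.03 in MR 4-25 and between -1.25 and -0.10 in Neo. Of the myeloid markers, Lyz2 and Cd68 lay higher in MR 4-25 without overlap (by 1.06 and 0.75), while Csf1r, Adgre1 and Itgam overlapped (0.27, 0.25 and -0.43). All 5 were well above background on all 6 arrays. The part of other cell types in the results was not tested.

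None of the members passed the test. Of 97 members, 95 were well above background on at least 3 arrays and were tested, and 0 rose and 0 fell in MR 4-25 at an adjusted p of 0.05 (limma, Benjamini-Hochberg over 21341 genes), against 1.23% of all genes tested, 0.675% higher and 0.558% lower. At an unadjusted p under 0.05 there were 20 members (21.1%, 5 higher and 15 lower in MR 4-25), against 13.3% of all genes. The members that were not measured were Ccnb3, a B-type cyclin, well above background on 1 array of each line, and E2f7, a repressor E2f, on no array. Of the 95, 94 were well above background on all 6 arrays, the exception being Ccnd2, and none had a saturated spot. When each probe was tested by itself, 0 of 156 probes of the member genes passed at an adjusted p of 0.05, against 1.3% of all probes.

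The differences were small and leaned downwards. The median over the 95 members was -0.11, against 0.01 over all genes, and 65 members lay below 0 and 30 above, from -1.03 for Cdk2ap1 to 1.51 for Pold4. Within 0.5 log2 units of no difference lay 77 members (81.1%), against 63.5% of all genes, and the 95% confidence interval lay inside a 2-fold change in either direction for 70 members (73.7%), against 38.6% of all genes. Members also varied less within a line than all genes did. Their median SD was 0.228 in MR 4-25 and 0.134 in Neo, against 0.422 and 0.225 over all genes. How far this smaller spread accounts for the shares was not tested. All 3 MR 4-25 arrays lay above all 3 Neo arrays in 11 members (11.6%; 11.2% of all genes) and below them in 23 (24.2%; 13.1% of all genes). The members' median was -0.15 on slide 1 and -0.12 on slide 2, against -0.02 and 0.09 over all genes. The sign was the same on both slides in 66 of 95 members, against 13481 of all 21341 genes. Arrays of 1 line also differed from each other by as much: relative to each gene's mean, the members' median was -0.14, 0.05 and -0.14 in MR 4-25, against 0.07, 0.09 and 0.02 in Neo. MR 4-25 replicate 2 thus stood nearer to the Neo arrays than to its own line's other arrays on this measure. Over all genes the same medians were 0.07, 0.06 and -0.14 in MR 4-25, against 0.06, 0.14 and -0.002 in Neo. The low value of MR 4-25 replicate 3 was therefore shared by all genes. Among the MR 4-25 arrays, only in replicate 1 did the members stand clearly below the value of all genes.

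**Figure D1:**
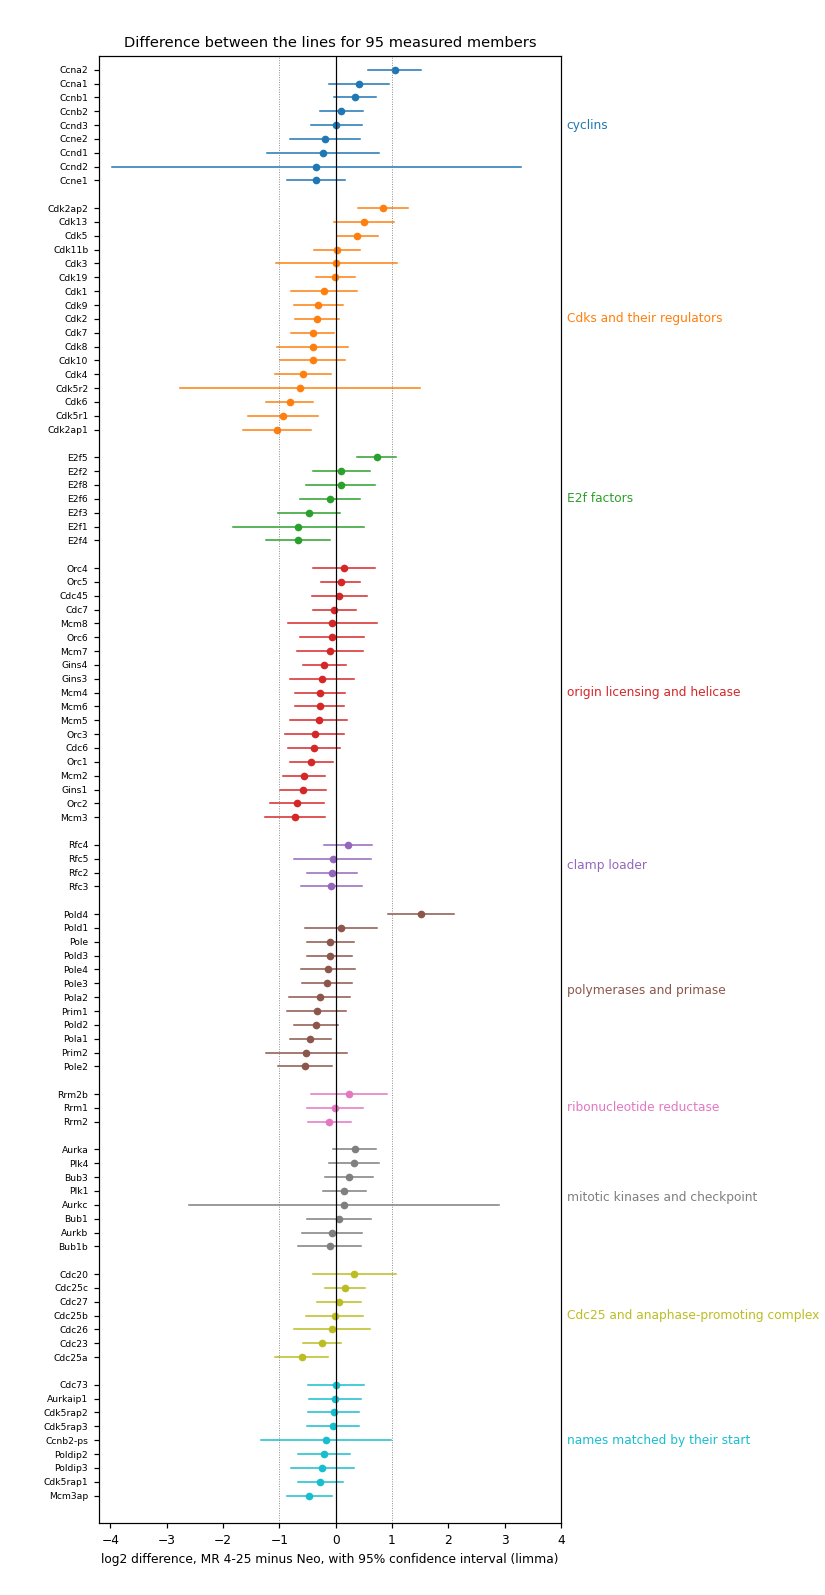
Log2 difference between the lines (x axis, MR 4-25 minus Neo) with its 95% confidence interval for each of the 95 measured members, grouped by role and sorted within a role. Most points lie between -0.5 and 0.5, Pold4 and Ccna2 lie above 1 and Cdk2ap1 below -1, and the widest intervals are those of Ccnd2, Aurkc and Cdk5r2.

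Beside these small differences stood a large one in Cdkn2a, the inhibitor gene. Cdkn2a had -2.35, -2.37 and -2.30 on the MR 4-25 arrays, against -7.45, -7.29 and -7.73 on the Neo arrays. It was well above background on all 3 MR 4-25 arrays and on 0 of 3 Neo arrays, so its level in Neo is only a bound, and it entered the test through the MR 4-25 arrays alone. Cdkn2a rose at least 11.9-fold in MR 4-25, taking for each Neo array the lowest signal among probes well above background (adjusted p = 0.00265, limma, from the values as measured, which differ by 5.15). The measured difference was 5.01 on slide 1 and 5.43 on slide 2, but the adjusted p was 0.0880 with the replicate number as a block and 0.123 after normexp background correction, where the difference was 2.16, and it was 0.0554 without Neo replicate 1 and 0.0573 without Neo replicate 2. The single Cdkn2a probe is annotated to 2 RefSeq transcripts, so p16Ink4a and p19Arf messages cannot be told apart. No gene of the Cdk, cyclin or replication groups passed the same test, which called 1.23% of all genes. On simulated data of this design that test recovered only 1.19% of genes set to change 2-fold.

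Among the other 7 Cdk inhibitors none passed (limma; 5 of the 8, Cdkn2a included, had an unadjusted p under 0.05, against 13.3% of all genes). Cdkn2d, which encodes p19Ink4d, an inhibitor of Cdk4 and Cdk6, had 4.32, 4.48 and 4.33 in MR 4-25, against 3.24, 3.56 and 3.47 in Neo (difference 0.95 ± 0.16 SE, adjusted p = 0.0792, limma). Cdkn1a, the p53 target p21, had -3.27, -3.34 and -3.68 in MR 4-25, against -5.33, -4.11 and -4.995 in Neo (difference 1.38, adjusted p = 0.195). In both genes the 2 lines did not overlap. Cdkn1b (p27), Cdkn2c (p18Ink4c) and Cdkn3, a phosphatase of Cdks, differed by 0.50, 0.40 and 0.76, again without overlap. Second probes of Cdkn1b and Cdkn2c gave 0.38 and 0.24, with overlap, and that of Cdkn3 gave 0.89 without overlap. Cdkn2b (p15Ink4b) differed by 0.31 and Cdkn1c (p57) by -0.47, with overlap. Both had low signal. Cdkn2b was well above background on 2 arrays of each line, and Cdkn1c on 1 MR 4-25 array and 3 Neo arrays. Over the 8 inhibitors, Cdkn2a included, the median was 0.63, and 6 lay higher in all 3 MR 4-25 arrays, against 11.2% of all genes. Cdkn2a is 1 of these 6, and it passed the filter through the MR 4-25 arrays alone. The retinoblastoma gene Rb1 differed by 0.34 without overlap, its relatives Rbl1 by -0.02 and Rbl2 by -0.14, and Trp53 and Mdm2 by 0.49 and 0.03 with overlap; none of these passed.

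The kinases that p16Ink4a binds averaged lower in MR 4-25, though neither passed the test. Cdk6 had 3.69, 3.85 and 3.44 in MR 4-25, against 4.49, 4.42 and 4.52 in Neo. No MR 4-25 array reached the lowest Neo array, and the difference was -0.82 ± 0.17 SE (adjusted p = 0.127, limma). Its other probes gave -0.78 and, for one whose 60 bases are split over 42285 bases of the genome, -0.32. Cdk4 had 3.33, 3.87 and 3.41 in MR 4-25, against 4.12, 4.15 and 4.09 in Neo. It too did not overlap (difference -0.58, adjusted p = 0.301), with MR 4-25 replicate 2 the nearest to Neo. The split probe of Cdk6 and one of Mcm3, on build mm7 of the array's annotation, are shown because their differences were smaller than those of the probe that stood for the gene.
Cdk6 probe (chr5:3479226-3521510, plus strand): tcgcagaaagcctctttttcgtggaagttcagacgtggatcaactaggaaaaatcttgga
Mcm3 probe (chr1:21000880-21001396, minus strand): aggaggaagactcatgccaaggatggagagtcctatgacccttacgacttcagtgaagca

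Of the other Cdks and their partners, Cdk2ap1, which binds Cdk2, and its relative Cdk2ap2 lay on opposite sides of 0. Cdk2ap1 had 2.40, 2.91 and 3.19 in MR 4-25, against 3.84, 3.81 and 3.95 in Neo. Its 3 MR 4-25 arrays were spread over most of a log2 unit and all lay below Neo (difference -1.03 ± 0.24 SE, adjusted p = 0.160, limma). Cdk2ap2 had 4.42, 4.76 and 4.76 in MR 4-25, against 3.70, 3.95 and 3.74 in Neo (difference 0.85 ± 0.18 SE, adjusted p = 0.129). All MR 4-25 arrays lay above all Neo arrays. Cdk5r1, the p35 activator of Cdk5, had -1.21, -1.26 and -1.70 in MR 4-25, against -0.63, -0.66 and -0.08 in Neo (difference -0.94, adjusted p = 0.202), while Cdk5 itself differed by 0.38. The mitotic kinase Cdk1 differed by -0.20 and Cdk2, the S phase kinase, by -0.33; Cdk7, the Cdk-activating kinase, by -0.41; Cdk9, a kinase of RNA polymerase II, by -0.31. Over the 17 genes of this group the median was -0.33, with 12 below 0 and 5 above, and 7 lay lower without overlap (41.2%; 13.1% of all genes) and 3 higher (17.6%; 11.2% of all genes). Cdk5r2, another Cdk5 activator, ranged from 2.59 to 4.09 in MR 4-25 and from 2.72 to 5.45 in Neo, and its sign differed between the slides.

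**Figure D2:**
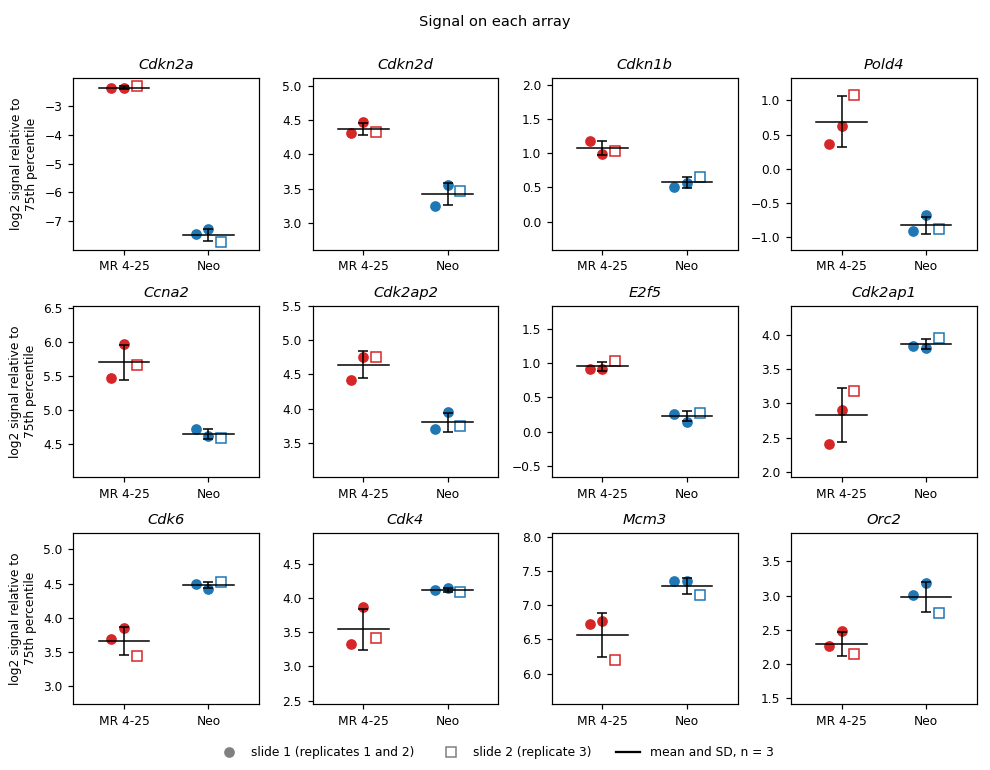
Log2 signal relative to the array's 75th percentile (y axis) on each array for 12 genes, MR 4-25 left and Neo right, with mean and SD (n = 3); filled circles are slide 1 and open squares slide 2. The 12 genes were chosen with their values known, and the lines overlap in none of them. Among the members, 11.6% lay higher and 24.2% lower in MR 4-25 without overlap, against 11.2% and 13.1% of all genes. The widest gap drawn is that of Cdkn2a, not well above background on any Neo array, followed by Pold4, 1.51.

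The cyclins showed no common direction, and Ccna2 had the widest gap among them. Ccna2, cyclin A of S phase and mitosis, had 5.47, 5.97 and 5.66 in MR 4-25, against 4.73, 4.62 and 4.60 in Neo. Every MR 4-25 array lay above every Neo array, on both slides, by 1.04 on slide 1 and 1.06 on slide 2 (difference 1.05 ± 0.19 SE, adjusted p = 0.0893, limma). Ccnb1 and Ccnb2, the B-type cyclins of mitosis, differed by 0.35 and 0.10. Ccna1, a cyclin of the male germline, differed by 0.42 at low signal (-3.50, -3.60 and -3.11 in MR 4-25; -3.73, -3.67 and -4.06 in Neo). Of the D-type cyclins that activate Cdk4 and Cdk6, Ccnd3 had 3.71, 4.06 and 4.02 in MR 4-25, against 4.06, 3.93 and 3.76 in Neo, which overlap fully. Ccnd1 ranged from -4.27 to -3.21 in MR 4-25 and from -4.13 to -3.15 in Neo, and Ccnd2 from -6.47 to -2.03 in MR 4-25 and from -5.51 to -1.96 in Neo. Their intervals, and that of Ccnd2 above all, are too wide to exclude a 2-fold difference. Ccne1 and Ccne2, the E-type partners of Cdk2, differed by -0.35 and -0.19. Of the 9 measured cyclins 5 lay above 0 and 4 below, with a median of 0.01.

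Among the E2f factors, E2f5 averaged higher in MR 4-25 and E2f4 lower. E2f5, a factor that works mainly as a repressor with pocket proteins, had 0.92, 0.91 and 1.03 in MR 4-25, against 0.26, 0.14 and 0.27 in Neo. The 2 lines were each tight and clearly separated (difference 0.73 ± 0.14 SE, adjusted p = 0.109, limma), and its second probe gave 0.69. E2f4, the other factor of that kind, had 0.02, 0.68 and 0.26 in MR 4-25, against 0.85, 1.15 and 0.94 in Neo (difference -0.66, adjusted p = 0.304). The activators E2f1, E2f2 and E2f3 differed by -0.66, 0.10 and -0.47; for E2f1 the value rests on MR 4-25 replicate 3, at 0.13, beside 1.43 and 1.505 on that line's other arrays and 2.16, 1.35 and 1.54 in Neo. E2f6 and E2f8, which repress, differed by -0.10 and 0.09. In the group 3 lay above 0 and 4 below.

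The genes of origin licensing and of the replicative helicase lay below 0 in 16 of 19 cases, with a median of -0.28 (-0.28 on slide 1, -0.32 on slide 2), yet none passed the test. Mcm3, a helicase subunit, had 6.72, 6.77 and 6.20 in MR 4-25, against 7.35, 7.36 and 7.14 in Neo. Its highest MR 4-25 array lay below its lowest Neo array (difference -0.72 ± 0.21 SE, adjusted p = 0.243, limma), and its split probe gave -0.43. Orc2, of the origin recognition complex, had 2.26, 2.48 and 2.14 in MR 4-25, against 3.00, 3.19 and 2.75 in Neo, without overlap (difference -0.68 ± 0.19 SE, adjusted p = 0.220). Mcm2 had 3.97, 4.18 and 4.203 in MR 4-25, against 4.73, 4.60 and 4.71 in Neo (difference -0.56, adjusted p = 0.202), also without overlap. Gins1, a subunit of the complex that holds the helicase active, had 2.64, 2.61 and 2.62 in MR 4-25, against 3.22, 3.38 and 3.02 in Neo (difference -0.58, adjusted p = 0.214). In Gins1 the MR 4-25 arrays were nearly equal and the spread lay in Neo.

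The remaining helicase subunits Mcm4, Mcm5, Mcm6 and Mcm7 differed by -0.28, -0.30, -0.28 and -0.09, and Mcm8, a relative used in recombination, by -0.06. Orc1 and Cdc6, which load the helicase, differed by -0.43 and -0.38, Orc3 by -0.38 and Orc6 by -0.07. The second probe of Cdc6 gave -1.15 without overlap, and the 5 probes of Orc3 ran from -1.01 to -0.13. The 3 members above 0 were Orc4 at 0.15, Orc5 at 0.09 and Cdc45, the helicase cofactor, at 0.06, and Cdc7, the kinase that fires origins, stood at -0.02. In all, 7 of the 19 lay lower without overlap (36.8%; 13.1% of all genes) and 1 higher (5.26%; 11.2% of all genes). The number below 0 was 13 to 18 of 19 over the alternative settings and left-out arrays, lowest with array quality weights.

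**Figure D3:**
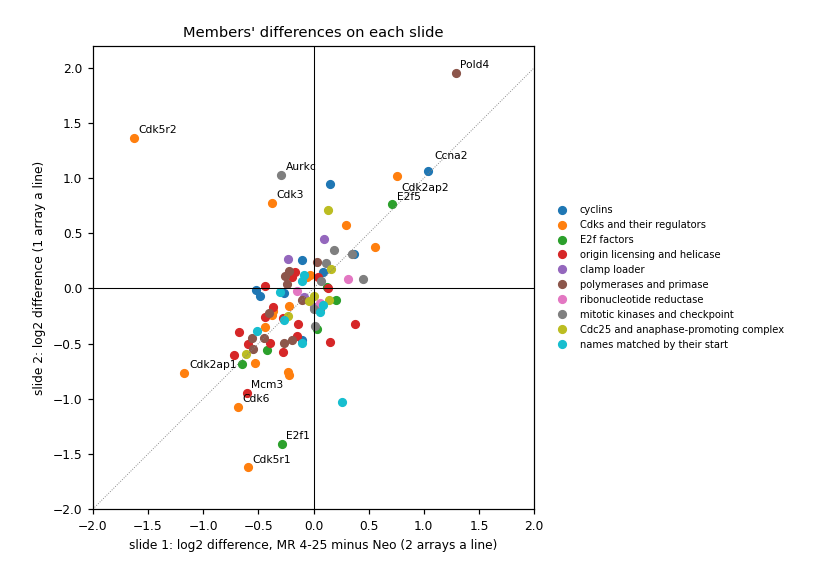
Difference between the lines on slide 1 (x axis, means of 2 arrays a line) against slide 2 (y axis, 1 array a line) for the 95 measured members, in log2 units, coloured by role; the dotted line marks equal values. Pold4, Ccna2, Cdk2ap2 and E2f5 lie high on both slides and Cdk2ap1, Cdk6, Cdk5r1 and Mcm3 low on both, while Cdk5r2, Aurkc and Cdk3 lie on opposite sides of 0.

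Most polymerase genes also averaged lower in MR 4-25, with 1 small subunit well above 0. Pold4, the smallest subunit of polymerase delta, had 0.36, 0.63 and 1.09 in MR 4-25, against -0.91, -0.68 and -0.87 in Neo. The gap between the lines exceeded the spread within either line (difference 1.51 ± 0.23 SE, adjusted p = 0.0654, limma), and it was 1.29 on slide 1 and 1.96 on slide 2. The other subunits of that enzyme, Pold1, Pold2 and Pold3, differed by 0.10, -0.34 and -0.11, and no second probe of Pold4 is on the array. Another probe of Pold1 gave -0.21 and another of Pold3 gave 0.18, so the direction of both genes depends on the probe. Pole2, of polymerase epsilon, had 1.01, 1.54 and 1.22 in MR 4-25, against 1.75, 1.89 and 1.77 in Neo, without overlap (difference -0.55, adjusted p = 0.313). Pola1, the catalytic subunit of polymerase alpha, differed by -0.45 without overlap, and the primase subunits Prim1 and Prim2 by -0.34 and -0.52. Of 12 genes 10 lay below 0, with a median of -0.22. The clamp loader genes Rfc2, Rfc3, Rfc4 and Rfc5 differed by -0.07, -0.08, 0.21 and -0.05, and the ribonucleotide reductase genes Rrm1, Rrm2 and Rrm2b by -0.01, -0.11 and 0.24, all with overlap.

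Most mitotic kinase and checkpoint genes lay slightly above 0. Aurka, a spindle pole kinase, had 5.54, 5.83 and 5.65 in MR 4-25, against 5.27, 5.41 and 5.33 in Neo (difference 0.34, adjusted p = 0.446, limma), and Plk4, the kinase of centriole duplication, differed by 0.33. Neither gene overlapped between the lines. Plk1, Bub3, Bub1, Aurkb and Bub1b differed by 0.15, 0.24, 0.07, -0.06 and -0.11; the other 3 probes of Bub3 gave -0.44, -0.11 and -0.51, so its direction depends on the probe. Aurkc, a kinase of germ cells, had -0.47, -0.81 and -2.53 in MR 4-25, against -0.39, -0.30 and -3.56 in Neo, low on the slide 2 array of each line by this probe. Its second probe had -2.94, -2.88 and -2.07 in MR 4-25, against -3.099, -3.095 and -3.30 in Neo, without overlap (difference 0.54). Of the 8 genes 6 lay above 0, with a median of 0.15, but after normexp background correction 3 lay above and 5 below, with a median of -0.06 while that of all genes stood at 0.34; without MR 4-25 replicate 2 and without Neo replicate 3, 4 lay above and 4 below. Cdc25a, the phosphatase that activates Cdk2, had 0.72, 0.60 and 0.35 in MR 4-25, against 1.29, 1.24 and 0.94 in Neo. It did not overlap (difference -0.60, adjusted p = 0.257), and its second probe gave -1.37. Cdc20, the activator of the anaphase-promoting complex, differed by 0.33 with overlap, and Cdc25b and Cdc25c by -0.02 and 0.16. Among the names matched only by their start, Mcm3ap and Cdk5rap1 differed by -0.47 and -0.27 and Aurkaip1 by -0.02; 8 of these 9 lay below 0, with a median of -0.17.

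Replication and mitosis genes outside the pattern leaned the same ways. Their lists were measured on the same 6 arrays and chosen with earlier results of these data known, so they are no independent check. None of these genes passed (limma, with unadjusted p under 0.05 in 6 of 26 and 3 of 25, against 13.3% of all genes). Of 26 other replication genes, 24 lay below 0 and 2 above, with a median of -0.27, and 12 lay lower without overlap, against 13.1% of all genes. The replication fork protein gene Timeless had 1.99, 2.21 and 1.73 in MR 4-25, against 2.87, 2.97 and 2.90 in Neo (difference -0.93, adjusted p = 0.109, limma). The sliding clamp gene Pcna differed by -0.07 and thymidine kinase, Tk1, by 0.36. Of 25 other mitotic genes, 19 lay above 0 and 6 below, with a median of 0.11, but 12 above and 13 below after normexp. Pttg1, the securin, had 5.75, 6.02 and 5.70 in MR 4-25, against 5.12, 5.01 and 5.23 in Neo (difference 0.71, adjusted p = 0.160), whereas Mki67, which encodes the proliferation marker Ki-67, differed by -0.14 with overlap. Of 12 genes for pocket proteins and their partners 9 lay below 0 (median -0.15), and of 6 measured checkpoint and p53 genes of 7 listed 3 lay below (median -0.19); none passed, with an unadjusted p under 0.05 in 3 and 1 of them.

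**Figure D4:**
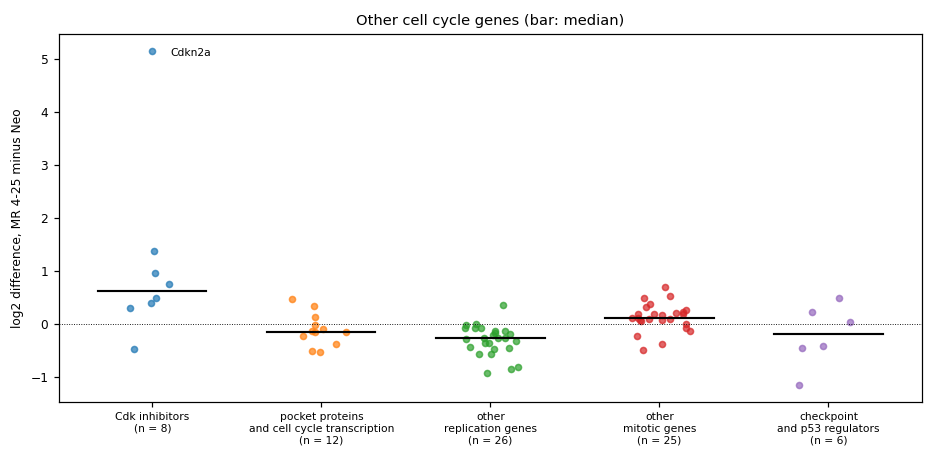
Log2 difference, MR 4-25 minus Neo (y axis), of the measured genes of 5 further lists; each point is 1 gene and the bar is the list's median. Cdkn2a, drawn at its measured difference of 5.15 although it was not well above background on any Neo array, lies highest, the other replication genes centre on -0.27 and the other mitotic genes on 0.11.

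The promoter letters were unevenly spread over the roles. E2F letters stood in the window of 21 of 74 members (28.4%), against 704 of 27025 genes with a window (2.6%). They were found in 9 of 16 licensing and helicase genes and 5 of 10 polymerase and primase genes, but in 0 of 7 mitotic kinase and checkpoint genes and 0 of 6 cyclins. Of the 20 measured holders, 18 lay below 0, with a median difference of -0.29 and a range from -0.72 for Mcm3 to 0.10 for E2f2. Of the 52 measured members with a window but without the letters 30 lay below 0, with a median of -0.04. Over all genes the medians were -0.09 for 516 measured holders and 0.03 for 12792 without. Holding the letters did not go with lower values in every role. All 9 licensing genes with them lay below 0 (median -0.30), against 4 of 7 without (median -0.02). Among polymerases and primase the median was -0.13 in the 5 with the letters and -0.29 in the 5 without, and among Cdks -0.27 in the 2 with them and -0.41 in the 11 without. Cdkn2a, which is no member and was higher in MR 4-25, also holds the letters TTTCCCGC, 99 bases before the start in 1 of its windows. Over the alternative settings and left-out arrays, 14 to 20 of the 20 holders lay below 0, fewest with array quality weights. The letters CCAAT stood in a window of 60.8% of the 74 members, against 41.1% of all genes with a window. TTTGAA, the core of the CHR element of mitotic genes, stood in 23% against 20.2%. Of the 7 mitotic kinase and checkpoint genes, 6 held CCAAT and 4 TTTGAA.

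**Figure D5:**
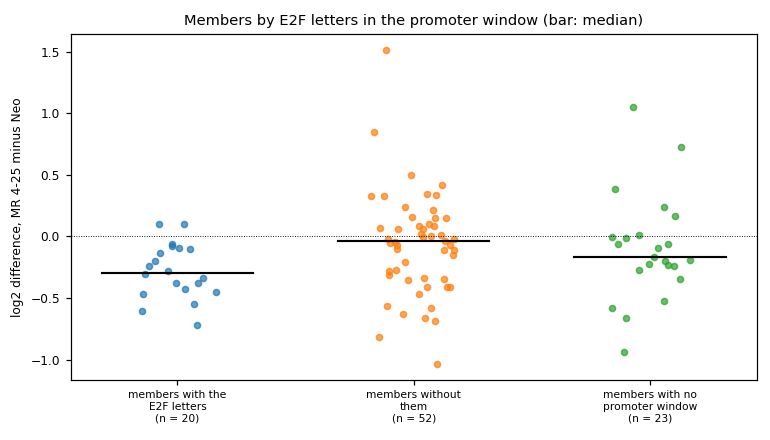
Log2 difference, MR 4-25 minus Neo (y axis), of the 95 measured members by whether the promoter window holds the E2F letters (20), does not (52) or is not in the promoter table (23); the bar is the median. Members with the letters lie between -0.72 and 0.10, and those without reach from -1.03 to 1.51.

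Probes and settings bear on how far these values can be read. In 44 members 2 or more probes passed the filter, and in 33 of them all probes lay on the same side of 0; the widest gap between probes of a gene was 0.98, in Ccnd2. When only genes well above background on all 6 arrays were tested, 3 members rose in MR 4-25, Ccna2, E2f5 and Pold4 (adjusted p 0.0360, 0.0391 and 0.0270, limma), against 3.42% of 15305 genes called, 1.89% higher. With array quality weights, which gave MR 4-25 replicate 3 a weight of 0.133 and MR 4-25 replicate 2 one of 4.72, 4 members rose (Ccna2, Cdk2ap2, E2f5 and Pold4) and 11 fell (Cdc25a, Cdk2ap1, Cdk5r1, Cdk6, Gins1, Mcm2, Mcm3, Mcm3ap, Orc1, Orc2 and Pola1), against 9.46% of all genes called, 4.41% higher and 5.04% lower. With the replicate number as a block, quantile normalization, median scaling, normexp, no filter, the mean over probes, the deposited value table, slide as a block, slide 1 alone or any array left out, no member was called.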

How the data were processed

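Background-corrected Cy3 intensity values were deposited by the authors as scanner output; they came from Agilent Feature Extraction (version 9.5 per the submitters' processing notes, 9.5.3.1 in the file headers). The deposited value table held the same intensity values. Members, lists and promoter letters were chosen with earlier results of these data known. Control spots were left out, outlier spots masked, spots of a probe averaged as log2 and the array's 75th percentile subtracted. A probe had to be well above background on 3 or more of the 6 arrays, and the brightest stood for each of 21341 genes. Names came from the RefSeq table by accession (22951 probes) or synonym (3109). The test was limma's (version 3.58.1, R 4.3.3; lmFit, eBayes, two-sided, Benjamini-Hochberg over all genes); figures used Python with matplotlib.

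The naming rule took, in each role, the 2 members of largest absolute difference and the brightest, plus the Cdk inhibitors, Rb1, Rbl1, Rbl2, Trp53 and Mdm2; every other gene named was chosen after its values were seen. After subtracting each line's mean, arrays with the same replicate number correlated across genes at 0.291, 0.214 and 0.557, so numbers were treated as pairs in an alternative with a replicate block; crossed arrays of slide 1 correlated too, at 0.413 and 0.38. On simulated data of this design (21341 genes), the test recovered 1.19% of genes set to change 2-fold, 38.8% at 4-fold and 63.9% at 16-fold. The number of arrays limits the precision. One list of marker genes is not reported here.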

Additional observations from a re-analysis of the deposited data

How the results depend on the processing

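No alternative was added after the data were seen. Calls over all genes were 263, and 80 with normexp, 524 with the filter on all 6 arrays, 2018 with array quality weights, 124 on slide 1 alone and 1 with the replicate block; leaving out an array gave 0 to 223. Members called higher were 3 with the filter on all 6 arrays and 4 with array quality weights, which also called 11 lower. The members' median was -0.331 with normexp and -0.238 to -0.054 with an array left out. The Cdkn2a difference was 2.16 with normexp (adjusted p = 0.123), and 5.15 with the replicate block (adjusted p = 0.0880); leaving out an array gave 5.03 to 5.25, with an adjusted p of 0.0554 without Neo replicate 1 and 0.0573 without Neo replicate 2. The filter on all 6 arrays gave no value for Cdkn2a. The replicate block changed no other call among the results reported. The sign of the difference turned in 16 of 95 members with normexp, 18 with array quality weights, 14 on slide 1 alone and 9 with the mean over probes. Among members that the naming rule took these were, with normexp E2f2 (-0.21), Pold1 (-0.29) and Rfc4 (-0.0351); with quantile normalization Rrm1 (2e-04); with the mean over probes Pold1 (-0.055); with array quality weights Aurkaip1 (0.09), Rfc3 (0.16) and Rrm1 (0.24); on slide 1 alone Rrm1 (0.0582). Among the other genes of that rule, Cdkn1c (0.76), Rbl2 (0.06) and Mdm2 (-0.28) turned with normexp, Rbl1 (0.005) with quantile normalization and Mdm2 (-0.02) with the mean over probes. With an array left out, Aurkaip1 ran from -0.11 to 0.0817, Rfc2 from -0.17 to 0.0345, Rfc3 from -0.24 to 0.083, Rrm1 from -0.16 to 0.11, E2f2 from -0.0067 to 0.26 and Pold1 from -0.0912 to 0.21. The median of all genes was 0.341 with normexp and 0.102 with no filter. The cause was not tested. Low signal limits Ccnd1, Ccnd2, Ccna1, Cdk3, Cdkn1c and Cdkn2b.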
